A study of Mus musculus with 39 samples.

Results

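Open chromatin was mapped by ATAC-seq in sorted cKIT+ spermatogonia of mice, and 8598 regions of the merged map carried a peak in 2 of the 5 libraries alone, control 2 and cKO 3. They were chosen by the measured peaks: the peak lists of all 5 libraries were merged into 52246 regions, and a region was kept where a peak of control 2 and a peak of cKO 3 overlapped it by at least 1 bp and no peak of the other 3 libraries did. The split crosses genotype, so these regions are not a contrast between genotypes. They made up 16.5% of the merged regions, against 8644 regions found in all 5 libraries, 10691 found in cKO 3 alone and 4239 found in control 2 alone. The rule used the peak calls, so peak strength, width and number are given as descriptions with no test.

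The study compared males with a floxed Kdm6a allele and no Cre (Kdm6a fl/y; Cre-, the controls) with males carrying the same floxed allele and a Cre driven by the germ cell gene Ddx4 (Kdm6a fl/y; Ddx4-Cre+, the cKO). All libraries described here therefore carry the floxed allele, and the Ddx4 promoter drives Cre in germ cells. ATAC-seq came from 2 control and 3 cKO libraries of 100000 sorted cells each. CUT&Tag for H3K27me3 came from another 2 control and 3 cKO libraries of 50000 sorted cells each, with 1 IgG library from control cells. Single-cell RNA-seq came from whole testis, 1 library per genotype. The labels used here give no age, batch or animal for a library, so p-values over libraries measure only the spread between these samples, which may be technical. Library numbers are not known to link ATAC and CUT&Tag samples.

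KDM6A removes methyl groups from lysine 27 of histone H3, and H3K27me3, which Polycomb complexes deposit, marks silent genes, among them many developmental regulators. ATAC-seq detects DNA that a transposase can reach, which includes active promoters and distal regulatory elements. Promoters can be open to a low degree while carrying H3K27me3, and germ cells are known for keeping many developmental promoters in such a state. KIT is a receptor on differentiating spermatogonia, and Leydig cells carry it as well. In sorted populations, a site open in few cells and a site weakly open in all cells cannot be told apart.

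The 2 libraries that define the regions had the longest peak lists. Control 2 held 33250 peaks covering 21.5 Mb and cKO 3 held 40497 peaks covering 29.4 Mb. Control 1 held 19118 peaks (12.4 Mb), cKO 1 held 14635 (8.50 Mb) and cKO 2 held 18883 (11.0 Mb). The read depth of these libraries is unknown, since only peaks were analysed. Among peaks with a −log10 q between 2 and 3, the median fold enrichment was 3.39 in control 2 and 3.23 in cKO 3, beside 3.37, 3.49 and 3.5 in control 1, cKO 1 and cKO 2. The peak names in the list of cKO 1 carry the same prefix, C2, as those in the list of control 1, although the 2 lists hold different peaks. The prefix was C3 in control 2, KO2 in cKO 2 and KO3 in cKO 3. Whether the list of cKO 1 was mislabelled was not tested. Without cKO 1 the rule gave 8973 regions in place of 8598. When every list was cut to its 14635 strongest peaks, the length of the shortest list, the rule gave 1105 regions (4.14% of the merged regions then), of which 803 overlapped the 8598. With every list cut at a −log10 q of at least 2 the rule gave 17.2% of the merged regions, and at 3 it gave 16.7%. The full lists gave 16.5%. The share therefore moved at equal list length but little at these cuts, and the part of depth in it was not tested. The targeted gene was as labelled in the single-cell data: Kdm6a stood at 16.0 CPM (95% Poisson interval 11.4 to 21.8) in control and 4.74 CPM (1.91 to 9.76) in cKO cells with spermatogonia markers, where a 3′ tag need not lie in the deleted part. The start of Kdm6a was open in all 5 ATAC libraries, with fold enrichments between 5.87 and 7.51.

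Promoters of 6 genes are shown because they carry the contrast within the set: the start lies in a region with a peak in control 2 and cKO 3 alone, and the whole window of 250 bases before the start is inside it. The first 3 are the strongest such regions at protein-coding starts that no H3K27me3 library overlapped, and the last 3 are the strongest that all 5 H3K27me3 libraries overlapped. Sequences are RefSeq, build GRCm38.p6, written 5′ to 3′ on the strand of the gene, and capitals mark the motifs searched for (spelled out with the motif shares). RAB3IP activates a small GTPase of vesicle transport, MAP2K6 is a kinase of the p38 pathway and CAAP1 is a regulator of apoptosis. SBK2 is a protein kinase, INAVA acts at epithelial junctions and CRISPLD2 is a secreted protein. The windows are chr10:116950454-116950703 (− strand) for Rab3ip, chr11:110398852-110399101 (+) for Map2k6, chr4:94556797-94557046 (−) for Caap1, chr7:4964407-4964656 (−) for Sbk2, chr1:136234281-136234530 (−) for Inava and chr8:119992188-119992437 (+) for Crispld2.
Rab3ip: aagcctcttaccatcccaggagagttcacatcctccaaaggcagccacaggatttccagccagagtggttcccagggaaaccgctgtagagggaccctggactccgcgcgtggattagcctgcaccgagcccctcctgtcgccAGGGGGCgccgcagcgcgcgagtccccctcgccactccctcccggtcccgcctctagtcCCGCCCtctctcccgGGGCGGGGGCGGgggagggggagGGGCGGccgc
Map2k6: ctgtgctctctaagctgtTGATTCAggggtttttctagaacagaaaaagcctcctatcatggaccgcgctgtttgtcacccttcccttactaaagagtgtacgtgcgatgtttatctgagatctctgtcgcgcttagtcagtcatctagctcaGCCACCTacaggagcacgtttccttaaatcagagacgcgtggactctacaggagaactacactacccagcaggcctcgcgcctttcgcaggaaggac
Caap1: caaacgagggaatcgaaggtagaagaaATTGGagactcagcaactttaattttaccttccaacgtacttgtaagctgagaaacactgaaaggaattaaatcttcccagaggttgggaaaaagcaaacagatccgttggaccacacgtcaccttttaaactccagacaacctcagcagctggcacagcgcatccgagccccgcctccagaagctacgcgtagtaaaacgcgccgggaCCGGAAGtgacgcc
Sbk2: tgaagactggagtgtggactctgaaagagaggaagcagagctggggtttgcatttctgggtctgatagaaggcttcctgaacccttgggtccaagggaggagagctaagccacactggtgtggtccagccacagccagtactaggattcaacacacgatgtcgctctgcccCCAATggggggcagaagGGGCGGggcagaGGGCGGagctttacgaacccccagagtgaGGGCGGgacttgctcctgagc
Inava: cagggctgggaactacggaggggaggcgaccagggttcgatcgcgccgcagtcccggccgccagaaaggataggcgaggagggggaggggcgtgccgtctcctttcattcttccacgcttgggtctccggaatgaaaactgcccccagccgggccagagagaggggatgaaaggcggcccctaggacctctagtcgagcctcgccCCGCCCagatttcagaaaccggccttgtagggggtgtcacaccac
Crispld2: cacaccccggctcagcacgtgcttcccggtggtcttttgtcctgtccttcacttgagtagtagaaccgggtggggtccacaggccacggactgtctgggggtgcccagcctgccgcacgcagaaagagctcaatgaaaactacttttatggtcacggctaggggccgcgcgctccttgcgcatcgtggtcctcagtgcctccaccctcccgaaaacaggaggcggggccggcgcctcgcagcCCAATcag
GC content in these windows was 70.4% for Rab3ip, 50.4% for Map2k6 and 49.6% for Caap1, and 58.8% for Sbk2, 65.2% for Inava and 63.2% for Crispld2. The Rab3ip window held 4 matches to the Sp/KLF motif and 20 CpG sites, the Sbk2 window 3 matches and 6 CpG sites. The Caap1 window held 1 NFY match and 1 ETS match and no Sp/KLF match.

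MicroRNA genes also lay under these regions. They overlapped 16 of 1005 listed hairpins (1.59%), through 12 regions, while regions of all 5 libraries overlapped 47 (4.68%) and any merged region 98 (9.75%). The 8598 are 16.5% of the merged regions, so 16 of those 98 hairpins is near background. Mir9-1 and Gm25641 overlap on opposite strands, as do Mir142 and Mir142b, and each is counted. Of the 12 regions, 10 had no H3K27me3 and 1 had it in all 5 libraries. These shares were 76.1% and 7.26% over the 8598 and 83.3% and 4.44% over all merged regions, so both counts are near background. The mature sequences below belong to hairpins whose known settings differ: miR-34b and miR-34c are abundant in meiotic and later male germ cells, miR-9 in the nervous system, miR-142 in blood cells, and let-7i is a member of the widely expressed let-7 family. Capitals mark the seed, bases 2 to 8.
miR-34b-5p: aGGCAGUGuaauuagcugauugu
miR-34b-3p: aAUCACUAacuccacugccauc
miR-34c-3p: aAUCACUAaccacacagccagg
miR-9-5p: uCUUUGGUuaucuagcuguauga
miR-9-3p: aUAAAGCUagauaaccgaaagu
miR-142a-5p: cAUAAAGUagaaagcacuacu
miR-142a-3p: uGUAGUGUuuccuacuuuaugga
let-7i-5p: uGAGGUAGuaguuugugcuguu
The seed AUCACUA was shared by miR-34b-3p and miR-34c-3p, and the seed of let-7i-5p by 12 other listed mature miRNAs. One region, chr9:51101913-51104452, spanned both Mir34b and Mir34c, with fold enrichments of 3.23 in control 2 and 3.47 in cKO 3 and no H3K27me3. The region over Mir9-1, chr3:88214442-88216221, had fold enrichments of 2.99 and 4.06 and was overlapped by H3K27me3 in all 5 libraries. The region over Mirlet7i, chr10:122985256-122986619, stood at 3.04 and 3.49, and that over Mir142, chr11:87755523-87757124, at 3.00 and 3.15, both without H3K27me3. Fold enrichment here and below is the authors' value for each peak over local background, listed as control 2 and then cKO 3 where a pair is given.

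The regions were weak peaks in both libraries. Their median fold enrichment was 3.53 in control 2 (25th to 75th percentile 3.21 to 3.98, range 2.06 to 8.44) and 3.72 in cKO 3 (3.29 to 4.29, range 2.03 to 10.8). Regions of all 5 libraries had medians of 5.26 in control 1, 5.82 in control 2, 4.64 in cKO 1, 5.54 in cKO 2 and 5.74 in cKO 3. Only 27 of the 8598 lay above the median of those shared regions in both control 2 and cKO 3. Regions of a single library were weaker still, with a median of 3.24 for control 2 alone and 3.29 for cKO 3 alone. Median −log10 q was 2.83 in control 2 and 4.03 in cKO 3, and 3386 regions (39.4%) reached 3 in both. Across the 8598 regions the 2 fold enrichments had a Pearson correlation of 0.60, a description over regions that share 2 libraries. The fold enrichment was higher in cKO 3 at 60.4% of them, against 48.9% of regions found in all 5.

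**Figure D1:**
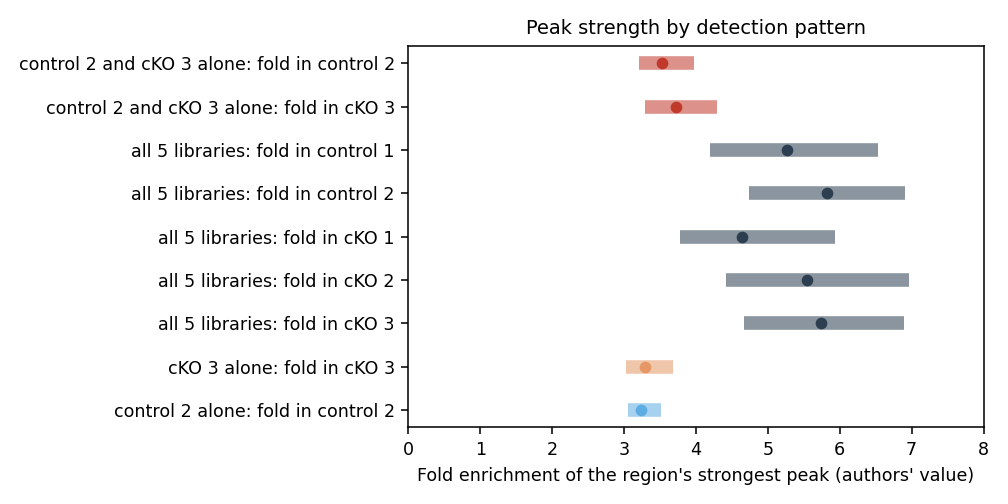
Fold enrichment of the strongest peak in each region (horizontal axis, the authors' value) by detection pattern and library; dots are medians over regions and bars span the 25th to 75th percentile. The regions of control 2 and cKO 3 alone have medians of 3.53 and 3.72, between those of regions of 1 library (3.24 and 3.29) and those of all 5 libraries (4.64 to 5.82).

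Strength followed the number of further libraries with a peak in most steps. Regions that added control 1 (4124 regions) had medians of 3.74 and 4.08 in control 2 and cKO 3, and those that added control 1 and cKO 2 (3052) had 4.24 and 4.54. Regions that added cKO 1 alone (376) had 3.66 and 3.70, so that their cKO 3 value was not above the 3.72 of the regions described here. Those that added cKO 2 alone (1343) had 3.82 and 3.90. Those that added both cKO 1 and cKO 2 (1016) had 3.96 and 3.75, a lower cKO 3 value than with cKO 2 alone. In all 8598 regions a peak of control 2 overlapped a peak of cKO 3. This follows from the rule, since merging without a gap joins only peaks that meet. The median overlap was 311 bp, and 8556 regions held a single peak of each library. The median width of the 8598 regions was 580 bp, beside 1074 bp for regions of all 5 libraries, 368 bp for cKO 3 alone and 299 bp for control 2 alone.

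**Figure D2:**
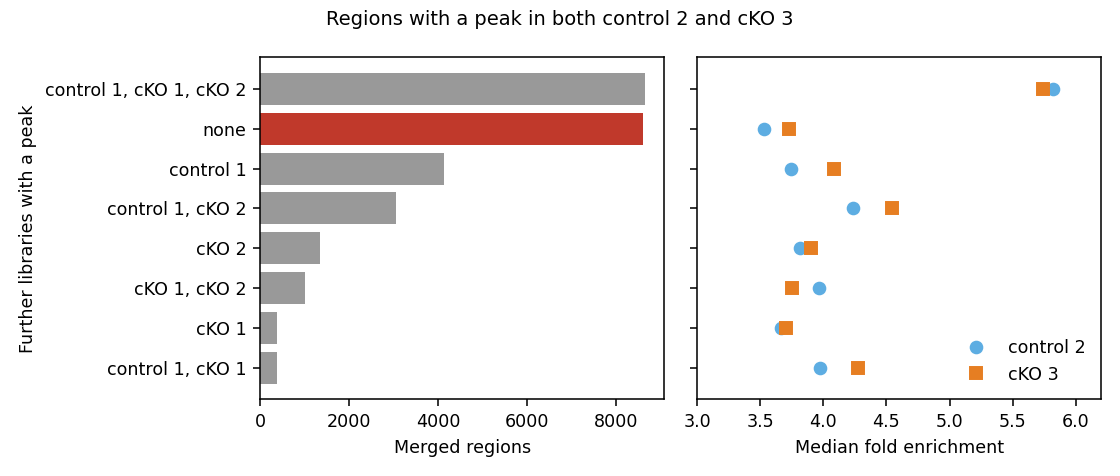
Left, number of merged regions with a peak in control 2 and cKO 3, by which further libraries have a peak; right, median fold enrichment in control 2 (circles) and cKO 3 (squares) for the same patterns. The 8598 regions with no further library (red bar) are nearly as many as the 8644 with a peak in all 5, whose medians are 5.82 and 5.74.

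The edge of the rule is thin for some regions. Just inside it, a peak of cKO 2 ended 16 bp from the region chr11:31359861-31360279 (fold 3.03 and 2.92), 18 bp from chr5:92941354-92943147 (3.23 and 3.83) and 43 bp from chr9:20726746-20727913 (3.42 and 5.14). Just outside it, a peak of cKO 2 overlapped chr19:28834564-28835266 (3.56 and 4.36) by 17 bp and chr1:20934669-20935547 (3.09 and 3.27) by 30 bp, and a peak of control 1 overlapped chr7:97747326-97749287 (3.5 in both libraries) by 31 bp.

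Most of the regions lay away from gene starts. Starts came from the RefSeq table used here, which gives none for 1 chromosome, and the 8306 regions on the others were placed. Of them 1511 (18.2%) were within 1000 bp of a start, beside 69.2% of regions of all 5 libraries, 9.88% of those of cKO 3 alone, 9.08% of those of control 2 alone and 24.7% of all merged regions. The median distance to a start was 13590.5 bp, near the 13266 bp of all merged regions, and 17.6% were more than 50000 bp away, against 21.1%. Among the 6795 farther than 1000 bp, 52.5% lay within the span of a protein-coding gene, beside 52.8% of all merged regions that far away; whether in an exon or an intron was not analysed here. The X chromosome held 154 of the 8598 (1.79%), against 2.65% of regions of all 5 libraries and 2.07% of all merged regions.

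The strongest regions, ranked by the lower of their 2 fold enrichments, included 3 that lay farther than 1000 bp from a start and 1 at a start. The first, chr11:94978989-94979472, lay 2662 bp from the nearest start, that of Sgca, a sarcoglycan of muscle, with fold enrichments of 7.28 and 7.02. The second, chr10:89676605-89676892, lay in the span of Scyl2, a regulator of vesicle traffic, at 6.83 and 6.72. The third was the start of Rab3ip, chr10:116949744-116950772, at 6.72 and 7.65. The fifth, chr9:32174919-32175431, lay in the span of Arhgap32, a GTPase-activating protein, 48844 bp from its nearest start, at 6.48 and 6.52. None of these was overlapped by H3K27me3 in any library.

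At starts, the 10 strongest regions belonged to Rab3ip, Map2k6, Caap1, Nomo1, Chm, Nubpl, Mak, 6720489N17Rik, Tspan33 and Gm46183. Map2k6 (chr11:110398847-110399385) had fold enrichments of 6.17 and 6.43, and Caap1 (chr4:94556628-94557088) 6.10 and 7.59. Nomo1, which encodes a membrane protein of the endoplasmic reticulum, had 6.07 and 6.38. Chm, on the X chromosome, encodes an escort protein for Rab GTPases and had 6.89 and 6.03. Nubpl, an assembly factor of mitochondrial complex I, had 7.87 and 5.98. Mak, a kinase first known from male germ cells, had 6.56 and 5.88 at chr13:41079338-41079772. The value was higher in cKO 3 for 6 of the 10 and higher in control 2 for Chm, Nubpl, Mak and Tspan33. H3K27me3 overlapped only Tspan33 among these 10, in 1 library, cKO 1. Of all 1511 such regions at starts, 881 had no H3K27me3 in any library, beside 9944 of the 12500 merged regions at starts.

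H3K27me3 was not used to choose the regions, and it overlapped them more often than it overlapped the other classes in each library. The share of the 8598 regions overlapped was 15.1% in control 1, 19.4% in control 2, 10.1% in cKO 1, 12.2% in cKO 2 and 18.2% in cKO 3. In regions of all 5 ATAC libraries it was 4.64%, 5.47%, 2.73%, 3.94% and 4.92% in the same order, and in all merged regions 10.1%, 13.1%, 6.25%, 8.26% and 12.0%. The IgG library overlapped 43 of the 8598 (0.50%), against 0.40% of all merged regions. It overlapped 0.25% of regions of all 5 libraries, 0.36% of cKO 3 alone and 0.35% of control 2 alone. The 8598 thus also stood highest in IgG, at far lower shares. The H3K27me3 share of the 8598 exceeded that of regions of all 5 libraries by 10.7 percentage points ± 2.93 (SD, n = 5), higher in 5 of 5 libraries. It exceeded that of cKO 3 alone by 4.36 ± 0.74 points and that of control 2 alone by 5.11 ± 0.77 points, each in 5 of 5 libraries. For each of the 3 differences the two-sided exact sign-flip permutation over 5 libraries gave p = 0.063 (adjusted p = 0.063 over the 3 tests). This is the smallest p that 5 libraries allow, and it does not reach 0.05. The SDs are over libraries of both genotypes. In the order above, the differences to regions of all 5 were 10.5, 13.9, 7.38, 8.27 and 13.3 points. They ranked as the length that each H3K27me3 list covered, and the part of that length in the SD was not tested.

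**Figure D3:**
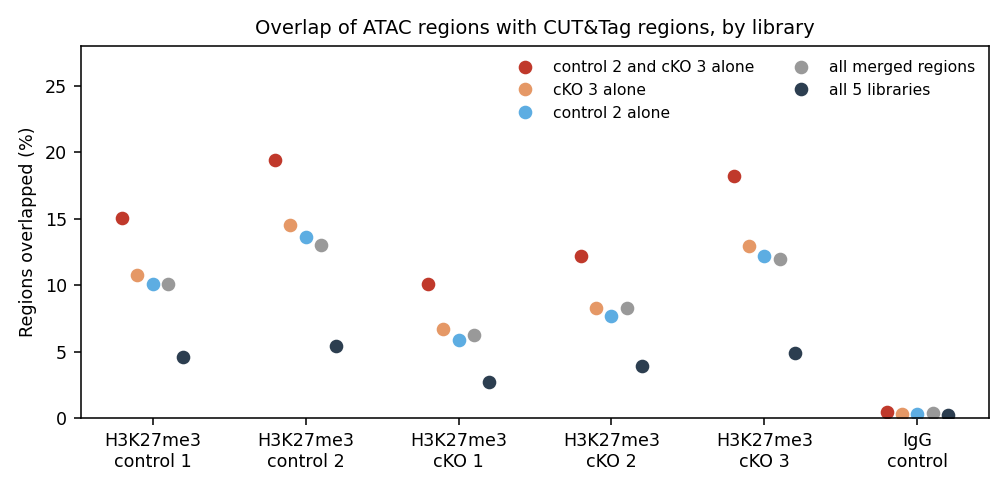
Share of ATAC regions (vertical axis, percent) overlapped by a CUT&Tag region in each H3K27me3 library and in the IgG library, with a colour for each detection pattern. In all 5 H3K27me3 libraries the regions of control 2 and cKO 3 alone (10.1% to 19.4%) stand above the other classes, and regions of all 5 ATAC libraries (2.73% to 5.47%) stand lowest.

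Genotypes overlapped in this share. The mean was 17.3% ± 3.05 (SD, n = 2) in control and 13.5% ± 4.21 (SD, n = 3) in cKO, a difference of −3.74 points with p = 0.4 by two-sided exact permutation, where the smallest possible p is 0.1. The 2 lowest shares belonged to cKO 1 and cKO 2, and cKO 3 stood above control 1. The order of the 5 shares was also the order of the length that each H3K27me3 list covered, which was 48.1 and 81.3 Mb in control 1 and control 2, and 21.3, 30.3 and 70.1 Mb in cKO 1, cKO 2 and cKO 3. Divided by the share in all merged regions of the same library, the values were 1.49 and 1.49 in control, and 1.62, 1.48 and 1.52 in cKO, a difference of 0.05 (p = 0.6, exact permutation, n = 2 and 3). Without cKO 1 this difference was 0.012 and without cKO 2 it was 0.082. Without control 2 the difference in shares was −1.59 points and without cKO 3 it was −6.09 points.

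Of the 8598 regions, 624 (7.26%) were overlapped by H3K27me3 in all 5 libraries, against 4.44% of all merged regions, 4.66% of regions of cKO 3 alone, 4.20% of control 2 alone and 1.80% of regions of all 5 ATAC libraries. H3K27me3 in both controls and no cKO library was found at 55 (0.64%), against 0.54% of all merged regions. H3K27me3 in all 3 cKO libraries and no control was found at 1 region (0.0116%), against 0.0134%. The last 2 shares lie near the background. No H3K27me3 in any library was found at 6547 regions (76.1%), against 83.3% of all merged regions. The share was 92.4% in regions of all 5 ATAC libraries, 81.4% in those of cKO 3 alone and 82.8% in those of control 2 alone.

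Regions with H3K27me3 in all 5 libraries were nearer to starts, wider and weaker than those with none. Of those with listed starts on their chromosome, 256 of 600 (42.7%) lay within 1000 bp of a start, against 881 of 6338 (13.9%) of regions with no H3K27me3. The share rose at each step of the number of H3K27me3 libraries, from 13.9% at 0 through 21.6%, 27.3%, 30.2% and 33.3% to 42.7% at 5. Over all merged regions it was 23.6% at 0 and 41.1% at 5, so the share at 5 was near that of all regions. The share also went from 7.16% to 34.1% in regions of cKO 3 alone and from 6.99% to 26.9% in those of control 2 alone, and from 70.2% to 60.9% in regions of all 5 ATAC libraries. Median widths were 857.5 bp with H3K27me3 in all 5 libraries and 550 bp with none, and median fold enrichments were 3.29 and 3.34 against 3.57 and 3.80. Regions of cKO 3 alone differed in the same direction, with 492.5 bp against 360 bp and a fold enrichment of 3.03 against 3.33.

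**Figure D4:**
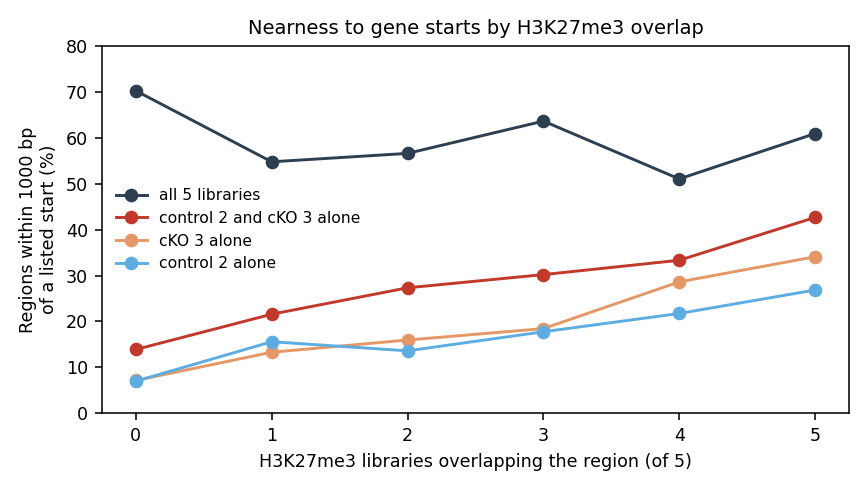
Share of regions within 1000 bp of a listed start (vertical axis, percent) by the number of H3K27me3 libraries that overlap the region (horizontal axis), for 4 detection patterns. For the regions of control 2 and cKO 3 alone the share goes from 13.9% at 0 libraries to 42.7% at 5.

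The comparison of shares was therefore also made separately at starts and away from them, a split chosen after the values were seen and given with no test. Within 1000 bp of a start, H3K27me3 overlapped 21.9% to 35.7% of the 1511 regions over the 5 libraries, 20.8% to 35.3% of the 1022 regions of cKO 3 alone, 15.3% to 29.2% of the 373 regions of control 2 alone and 2.28% to 4.51% of the 5828 regions of all 5 ATAC libraries. Farther away it overlapped 7.39% to 15.6% of the 6795 regions, 5.12% to 12.3% of those of cKO 3 alone, 4.98% to 12.2% of those of control 2 alone and 3.79% to 7.53% of those of all 5. In each of the 5 libraries the share was above that of each of these classes in both places. At starts the regions were also wider (median 803 bp) than those of cKO 3 alone (437 bp) and control 2 alone (325 bp), though not than those of all 5 (1090 bp). A wider region can meet the 1 bp overlap more easily. Windows of 500 bp, used only without this split, gave 3.92 points over cKO 3 alone and 4.58 over control 2 alone. The part of width in the split was not tested. At starts the gap to cKO 3 alone was smaller than elsewhere and the gap to control 2 alone was larger, in each of the 5 libraries.

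Among regions with H3K27me3 in all 5 libraries, the strongest were near Gm38751, Brsk2, Msx2, Gm13404 and Sbk2. The region at chr5:147227368-147227653, 5503 bp from the start of Gm38751, had fold enrichments of 5.62 and 5.29. Brsk2, a kinase of neuronal polarity, had 5.00 and 5.37 at chr7:141949238-141949745. Msx2, a homeobox regulator of limb and skull development, had 5.03 and 4.96 at chr13:53472484-53472922. Gm13404 had 5.69 and 4.80, and Sbk2 4.80 and 5.20. Next at starts came Inava (4.27 and 4.86), Slc18a2, a vesicular monoamine transporter (4.20 and 4.15), Gm34489 (4.11 and 5.26), Fermt1, an integrin adaptor (5.47 and 4.08), Mc3r, a melanocortin receptor (4.46 and 4.04), and Crispld2 (4.26 and 4.02). These last were named after their values were seen.

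Of 94 genes of the lists below with a listed start, 3 (3.19%) had such a region alone there, against 5.48% of all listed genes (1482 of 27025), and the lists are described member by member. Of 19 developmental regulators with a listed start, 1 was open in all 5 libraries, 10 had another pattern, 6 had no region and 2, Otx2 and Pax2, had a region of control 2 and cKO 3 alone. Otx2, a homeobox gene of the forebrain, had fold enrichments of 2.93 and 3.35 and H3K27me3 in all 5 libraries. Pax2, a regulator of kidney development, had 2.98 and 2.70 and H3K27me3 in all 5 libraries. Of 23 meiosis genes, 18 were open in all 5 libraries and 1, Mei1, an early recombination gene, had a region of control 2 and cKO 3 alone (4.19 and 4.81, H3K27me3 in control 2 and cKO 2). Of 11 genes of spermatogonial differentiation, 7 were open in all 5 and none had such a region alone, although Rarg, a retinoic acid receptor, had one (2.86 and 2.64) beside a start open in all 5. Of 13 stem and progenitor genes, Eomes had one beside other regions (2.97 and 3.37, H3K27me3 in all 5 libraries). Of 15 genes of the H3K27 machinery, 10 were open in all 5, and Kmt2c had one (2.69 and 3.03) near a start open in all 5. Of 13 spermiogenesis genes, 11 had no region. Starts of markers of the sorted cells had peaks in every library, fewest in cKO 1, which had the shortest list. Of 8 spermatogonia markers with a listed start, 8 had a peak in control 1, 8 in control 2 and 8 in cKO 3. The number was 4 in cKO 1 and 7 in cKO 2.

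Of 20 markers of other cell types with a listed start, 1 had a region of control 2 and cKO 3 alone there (5.00%, near the 5.48% of all listed genes). It was Kdr, 1 of 2 endothelial markers with a listed start. Kdr, the endothelial VEGF receptor, had fold enrichments of 4.55 and 4.67, with H3K27me3 in 4 of 5 libraries. Among the Leydig markers, 3 of 4 had a peak in control 1, control 2, cKO 2 and cKO 3 and 1 of 4 in cKO 1. Sertoli markers had a peak at 2 of 3 starts in cKO 3 and at 0 in the other libraries. Spermatocyte markers had a peak at 2, 3, 1, 3 and 4 of 4 starts in control 1, control 2, cKO 1, cKO 2 and cKO 3. Leukocyte markers and round spermatid markers each had a peak at 1 of 3 starts in control 2 and at 0 in the other libraries. Endothelial markers had a peak at 1 of 2 starts in control 2 and in cKO 3 and at 0 in the others. The 1 peritubular marker had a peak in control 2, cKO 2 and cKO 3. A longer list can reach more starts of any kind, and the lists ran from 14635 peaks in cKO 1 to 40497 in cKO 3. The share of all listed starts with a peak in each library was not computed, so these counts have no background. The part of other cell types in the longer lists was not tested.

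The median distance to the nearest region of all 5 libraries was 62754.5 bp, beside 67693 bp for regions of cKO 3 alone and 70358 bp for those of control 2 alone, and 2.79%, 2.58% and 2.55% lay within 5000 bp.

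Promoters under these regions lay between open and closed promoters in base composition. Over 1322 starts whose 250 upstream bases were overlapped by such a region and no other, the median GC content was 58.8% and the median ratio of observed to expected CpG was 0.58. The values were 62% and 0.80 at 7975 starts under regions of all 5 libraries, 47.2% and 0.20 at 18762 starts under no region, and 52.4% and 0.37 at all 32817 distinct starts. Regions of a single library lay lower than those of control 2 and cKO 3: 55.6% and 0.46 at 656 starts under regions of cKO 3 alone, and 54.6% and 0.40 at 214 starts under regions of control 2 alone. Within the set, starts with H3K27me3 in all 5 libraries (228) had 60.6% and 0.63, and those with none (775) had 56.0% and 0.56.

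Motif matches were counted in the same windows on both strands, as letters only. The Sp/KLF motif GGGCGG was in 47.8% of the promoters under these regions, 66.1% of those under regions of all 5 libraries, 12.9% of those under no region and 32.7% of all. Under regions of cKO 3 alone it was in 38.4%, and under those of control 2 alone in 39.3%. The ETS motif CCGGAAG was in 6.51%, 17.3%, 2.04% and 6.90%, and the NRF1 motif GCGCATGC in 2.27%, 5.79%, 0.52% and 2.25%. The NFY motif CCAAT was in 28.8%, 39.5%, 32.5% and 33.8%. A CTCF core, spelled AGGGGGC in the first form searched, AGGTGGC in the second form and AGATGGC in the third, was in 23.8%, 24.0%, 13.7% and 18.0%. CRE TGACGTCA was in 1.36% against 1.55% of all promoters, AP-1 TGANTCA in 4.77% against 6.75%, GTTGCC, a part of the RFX motif, in 12.9% against 10.4%, AGGTCA, a single unit of the retinoic acid receptor element, in 11.6% against 14% and the DMRT motif TGTANCA in 5.67% against 7.83%. Within the set, ETS was in 9.29% of promoters with no H3K27me3 and 1.75% of those with H3K27me3 in all 5 libraries, and Sp/KLF in 42.7% and 55.3%. No motif letters other than those of CTCF and of Sp/KLF, ETS, NFY or AP-1 were found in the 6 printed windows. The motifs may overlap each other, and a match is not evidence of binding.

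The median RNA level of the genes at these starts was under that of all genes with a listed start, and lower where the region had H3K27me3. Levels were taken from single-cell libraries, in cells with at least 3 of 8 spermatogonia markers (233 of 10988 control and 162 of 8258 cKO cells), as UMIs summed over cells and scaled by the total of those cells to CPM. With 1 library per genotype there was no test, and the intervals given for single genes cover counting error only. Of the 1482 genes with such a region alone at their start, 1199 were in the matrix, with a median of 2.0 CPM in control and 2.03 CPM in cKO. Over all 20267 genes of the matrix with a listed start the medians were 3.20 and 3.38 CPM. Genes open in all 5 libraries (6638) had medians of 30.0 and 28.4 CPM, and genes with no region (8023) had 0 and 0. Within the set, genes whose region had no H3K27me3 (658) had medians of 4.41 and 4.06 CPM, those with it in 1 to 4 libraries (314) 1.20 and 0.68, and those with it in all 5 (227) 0.40 and 0.68. A level of 3 UMIs corresponds to 1.20 CPM in control and 2.03 CPM in cKO, so the lower medians lie at or under this counting limit.

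The share of genes at 10 CPM or more was 26.8% in control and 26.4% in cKO, beside 38.7% and 38.1% of those 20267 genes. It was 36.9% and 36.5% without H3K27me3, and 8.81% in both libraries with H3K27me3 in all 5. These shares are over genes, which are not replicates, and carry no spread between samples. Genes open in all 5 stood at 75.5% and 74.6%, genes with other patterns (4307) at 34.3% and 34.1% and genes with no region at 12.4% and 11.7%. The median log2 ratio of cKO to control over the 1199 genes was 0 with a pseudocount of 1 CPM.

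**Figure D5:**
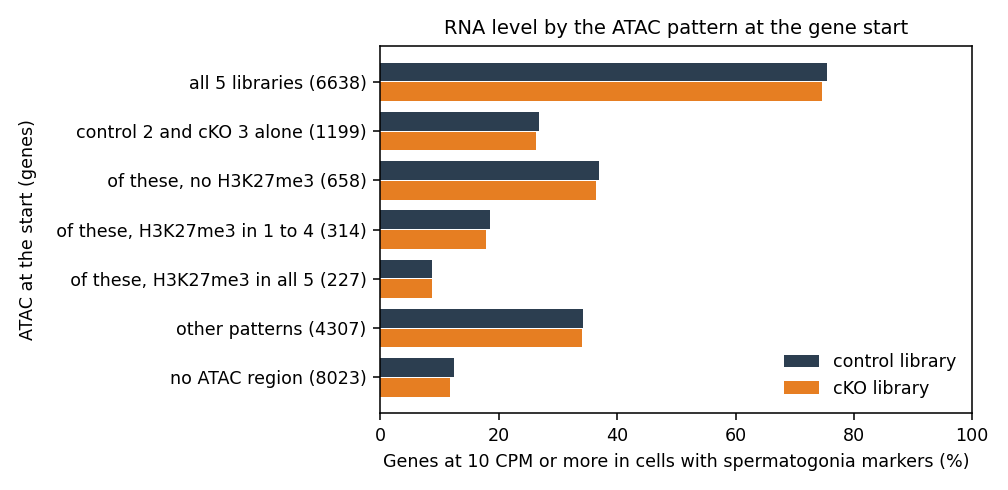
Share of genes at 10 CPM or more (horizontal axis, percent) in cells with spermatogonia markers, for the control and the cKO library, by the ATAC pattern at the gene start; the number of genes is in brackets. Genes with a region of control 2 and cKO 3 alone stand at 26.8% and 26.4%, and within them the share goes from 36.9% without H3K27me3 to 8.81% with H3K27me3 in all 5 libraries in the control library.

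RNA of a spermatid gene was found in the chosen cells. Prm1, a protamine gene of spermatids, stood at 11523 CPM in the control cells with spermatogonia markers and 26557 CPM in the other control cells, a ratio of 0.43, at median depths of 7800 and 8587 UMIs. Whether it came from free RNA, doublets or the choice of cells was not tested. Of the 321 genes at 10 CPM or more in control, 311 (96.9%) had a ratio above that of Prm1, beside 4986 of 5012 (99.5%) of genes open in all 5 libraries. These genes were kept by their level in the chosen cells, which is the upper part of the ratio. High ratios were therefore favoured in advance, and these shares are no check on RNA from spermatids. Since 8 of the 10 spermatogonia markers chose the cells, their level is no check of them. Of the other 2, Kit was higher in the chosen cells (106 against 4.27 CPM in control and 92.1 against 3.35 CPM in cKO) and Dmrtb1 was lower (229 against 463 CPM and 289 against 523 CPM).

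Markers of other cell types were present in the chosen cells. Sertoli markers differed between the libraries: 7 of 7 were higher in the chosen control cells (132 against 60.6 CPM summed) and 3 of 7 in the chosen cKO cells (60.9 against 64.9). Of 6 Leydig markers, 0 were higher in control (22 against 123 CPM summed, with Hsd3b1 at 0) and 1 in cKO (23.7 against 98.6). Of 4 spermatocyte markers, 2 were higher in each library (927 against 849 CPM summed in control and 771 against 841 in cKO). Of 3 round spermatid markers, 0 were higher in either library (16002 against 37366 CPM summed and 13402 against 36780). The remaining lists were low everywhere. Of 4 endothelial markers, 3 were higher in control (2.80 against 1.59 CPM summed) and 2 in cKO (7.45 against 2.49). Of 6 leukocyte markers, 3 were higher in control (3.61 against 6.12) and 1 in cKO (1.35 against 4.59). Of 3 peritubular markers, 1 was higher in control (2.80 against 3.39) and 0 in cKO (2.03 against 5.57). The part of these cells in the levels was not tested. Of 350 genes with a region of control 2 and cKO 3 alone that reached 10 CPM in either set of control cells, 54.6% were higher outside the chosen cells. The share was 27.7% for genes open in all 5 libraries, 47.4% for genes with other patterns, 80.6% for genes with no region and 40.4% over all genes with a listed start that reached this level.

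Named genes followed this spread. Rab3ip stood at 72.9 CPM (62.7 to 84.3) in control and 78.5 CPM (64.9 to 94.2) in cKO, and at 131 CPM in other control cells. Mak stood at 49.3 CPM (41.0 to 58.8) and 42.6 CPM (32.8 to 54.6), and at 82.3 CPM in other control cells. Caap1 stood at 23.6 and 35.2 CPM with intervals that overlap (18.0 to 30.5 and 26.3 to 46.2). Mei1 stood at 10.8 CPM (7.13 to 15.7) and 11.5 CPM (6.70 to 18.4), and at 2.08 CPM in other control cells. Map2k6, whose region was among the strongest at a start, had no UMI in either library (upper limits of 1.48 CPM in control and 2.5 CPM in cKO). Of the genes with H3K27me3 in all 5 libraries, Brsk2 stood at 37.7 CPM (30.4 to 46.1) and 23 CPM (15.9 to 32.2). Inava stood at 7.21 and 9.48 CPM and Pax2 at 4.41 and 2.03 CPM. Crispld2 had 5 UMIs in each library, and Slc18a2 had 5 in control and 2 in cKO. Msx2 and Gm13404 had 1 UMI in control and none in cKO, and Fermt1 and Eomes none in control and 1 in cKO. Otx2, Sbk2 and Mc3r had none in either.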

How the data were processed

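ATAC-seq, H3K27me3 CUT&Tag and single-cell RNA-seq files were used; bulk RNA-seq was not. The members and gene lists were chosen with earlier results of these data known. Tools named in the submitters' processing notes, with no roles given, are cutadapt, Bowtie2 and MACS2 for ATAC-seq, with SAMtools, deepTools and SEACR in addition to cutadapt and Bowtie2 for CUT&Tag, and Cell Ranger and Seurat 4.1.0 for single cells, on build mm10. The deposited ATAC lists, called per library, give a score, a fold enrichment (a ratio), and −log10 p and −log10 q per peak, with every −log10 q at least 1.3; the filter is not stated. The deposited CUT&Tag lists give summed and highest signal per region, used only to rank regions, since no source states how libraries were scaled. By file name, 4 of the 5 H3K27me3 libraries were downsampled and cKO 2 is not so described. The deposited single-cell matrices hold raw UMI counts for every barcode.

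Peaks were merged without a gap and patterns read at an overlap of 1 bp (Python 3.11.15, pandas 2.3.3, scipy 1.17.1). The steps were tested on simulated data. Starts came from RefSeq GRCm38.p6, the assembly of mm10 (32851 starts of 27025 genes). Shares were compared over libraries by two-sided exact permutation, and no test given here took regions as replicates. Cells needed 3000 UMIs, 500 genes and at most 10% mitochondrial UMIs; doublets were not called, and 27 barcodes were shared by the 2 libraries. The control library holds 229882646 UMIs and the cKO library 172368722 over all barcodes. The marker rule for cells was set after the markers were seen: Kit and Dmrtb1 were left out of it. Of the listed genes, 20267 (75.0%) matched the matrix by symbol. Named were the 5 strongest regions by the lower fold enrichment, the 5 strongest with H3K27me3 in all 5 libraries, the 10 strongest at starts, up to 4 genes per list, and the regions nearest the edge of the rule. 1 of the 5 strongest regions is not reported here. Motifs were counted in promoters only, since no genome was used.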

Additional observations from a re-analysis of the deposited data

How the results depend on the processing

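The number of regions kept within 1.5 times of 8598 with peaks of −log10 q at least 2 (7641), with coverage of 50% of the region required (9165) and with merging within 100 bp (8621). Of the 8598, 76.4%, 76.9% and 99.8% overlapped the regions found under these settings, in the same order. The number of regions was 5587 at −log10 q of at least 3 (16.7% of the merged regions then), where 3386 overlapped the 8598. At equal list length it was 1105 (4.14%). Both alternatives hold fewer peaks. Leaving out control 1, cKO 1 or cKO 2 gave 8973 to 12723, the highest without control 1; without control 2 or cKO 3 the rule could not be applied. The share within a start window was 16.2% at 500 bp and 28.8% at 5000 bp, by construction. The differences in H3K27me3 share from regions of all 5 libraries, of cKO 3 alone and of control 2 alone kept their sign under all 11 alternatives run, as did the difference between genotypes under 12. Leaving out 1 library could not turn the sign of the differences between classes, since each was positive in all 5 libraries. These shares were not computed at an ATAC −log10 q of at least 3 or at equal ATAC list length. Leaving out each library gave 9.85 to 11.5 points, 4.12 to 4.59 points and 4.88 to 5.33 points (exact p = 0.125, the smallest 4 libraries allow), and −6.09 to −1.59 points for cKO less control. Classes built without ATAC cKO 1, chosen after seeing the data, gave 9.16, 4.55 and 5.63 points. With the replicate number as a block, numbers 1 and 2 gave −6.09 points (exact p = 0.5). The numbers are not known to pair samples. Deviations correlated at 0.10 for number 1 and −0.05 for number 2, and at −0.13 to 0.13 for unlike numbers. With 2 controls, their deviations from the control mean mirror each other, so these values cannot show whether the numbers pair samples. With 200 bases in place of 250, added after seeing the data, motif shares fell, for NFY to 23.8% and for CTCF to 20.8%. A minimum of 1000 UMIs gave 26.4% and 25.9% of genes at 10 CPM or more. Read depth of the ATAC libraries is unknown, so no limit on missed peaks can be given.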
